A study of Mus musculus with 16 samples.

Results

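The genes described here are 6 matrix metalloproteinases (Mmp2, Mmp3, Mmp9, Mmp14, Mmp15 and Mmp23) and the 4 tissue inhibitors of metalloproteinases (Timp1, Timp2, Timp3 and Timp4) in mouse heart ventricle after pressure overload, with and without the CDK7, CDK12 and CDK13 inhibitor THZ1. They are the rows of the table of normalized counts whose Ensembl identifiers carry these symbols in the mouse annotation, 10 of 22372 genes. All 10 passed the filter on low values (10 or more normalized counts in 4 or more libraries), as did 13331 genes in all, which were then tested. In the table, 17 other Mmp genes were listed, of which 7 passed the same filter.

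Matrix metalloproteinases are zinc-dependent proteases that are made as inactive precursors and cut collagens, gelatin, proteoglycans and many surface proteins once their prodomain is removed. Timps bind the active site of the mature enzymes and block it, and the Mmp14 protein at the cell surface uses bound Timp2 as a docking partner to activate the Mmp2 precursor. In the pressure-overloaded heart both families take part in the turnover of the fibrillar matrix, with cardiac fibroblasts as a main source of Mmp2 and with neutrophils carrying stored Mmp9.

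The samples were ventricle pieces of 10 to 20 mg from C57BL/6J mice that were 10 to 12 weeks old at the start. Sham-Veh mice had a sham operation and vehicle, and Sham-THZ1 mice a sham operation and THZ1. TAC-Veh mice had transverse aortic constriction (TAC), a suture that narrows the aortic arch and overloads the left ventricle, and vehicle, whereas TAC-THZ1 mice had TAC and THZ1. THZ1 was injected into the peritoneum at 10 mg/kg per dose, with 2 doses on each day. Dosing began on day 1 and ended on day 60 after the operation. Each group held 4 libraries, which the labels number as replicates and which are taken as 1 mouse each. All mice were of 1 strain, and the vehicle groups differ from the drug groups in no other labelled item.

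Each library held 21.4 to 35.8 M reads (M, mega) in genes, with a median of 28.2 M, as recovered from the step size of the values. The ventricle label matched the defining genes: the 6 cardiomyocyte genes (Myh6, Tnnt2, Actn2, Ryr2, Pln and Myl2) summed to 519509 or more normalized counts in every library, whereas the 3 atrial genes (Myl7, Myl4 and Sln) summed to 25.1 to 82.3. Most of that sum was Myl4, at 25.1 to 81.1, while Myl7 and Sln did not exceed 6.44 in any library. A ventricle piece holds myocytes, fibroblasts, vessel cells and blood cells together, so fewer cells of a type and less RNA per cell cannot be told apart. Normalized counts below compare a gene between libraries, and comparisons between genes use normalized counts per kilobase of merged exon.

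RefSeq promoter windows (GRCm38.p6, 250 bases before and 50 after a gene start) were used for 8 of the 10 genes, all but Mmp2 and Mmp9. They were searched on both strands for 4 short motifs: the AP-1 letters TGANTCA, the related letters TGAGTAA, the GC box GGGCGG and the TATA letters TATAAA. Mmp3 held the AP-1 letters, 46 bases before the start, and TATA letters, 7 bases before it. Of all 32851 promoter windows, 7.81% held TGANTCA and 13.6% held TATAAA. Timp1 held TGAGTAA, beginning at base 27 of the transcript, letters found in 2.68% of all windows. The GC box was in 1 or more windows of Mmp14, Mmp15, Mmp23, Timp1, Timp2 and Timp3 and in 35.7% of all windows, and no window of Mmp3 or Timp4 held it. A match says only that these letters are there.

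The 250 bases before the start (GRCm38.p6) are shown 5′ to 3′ for Timp1, the member with the largest difference after TAC, for Mmp3, the member with the AP-1 letters, and for Mmp14 and Mmp15, both membrane-anchored enzymes, which moved in opposite directions after TAC. Capitals mark the motifs named above, with CCGCCC as the GC box on the other strand.
Timp1, chrX:20869916-20870165, plus strand: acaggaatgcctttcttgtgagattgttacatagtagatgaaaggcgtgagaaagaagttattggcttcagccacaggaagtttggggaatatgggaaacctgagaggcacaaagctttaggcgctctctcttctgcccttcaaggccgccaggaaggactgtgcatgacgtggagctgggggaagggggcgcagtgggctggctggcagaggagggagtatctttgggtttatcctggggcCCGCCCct
Mmp3, chr9:7445572-7445821, plus strand: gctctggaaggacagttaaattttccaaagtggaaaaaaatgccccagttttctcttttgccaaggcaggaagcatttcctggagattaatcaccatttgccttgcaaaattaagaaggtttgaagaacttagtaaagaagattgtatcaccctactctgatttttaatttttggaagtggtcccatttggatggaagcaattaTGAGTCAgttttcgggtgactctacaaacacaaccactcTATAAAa
Mmp14, chr14:54431348-54431597, plus strand: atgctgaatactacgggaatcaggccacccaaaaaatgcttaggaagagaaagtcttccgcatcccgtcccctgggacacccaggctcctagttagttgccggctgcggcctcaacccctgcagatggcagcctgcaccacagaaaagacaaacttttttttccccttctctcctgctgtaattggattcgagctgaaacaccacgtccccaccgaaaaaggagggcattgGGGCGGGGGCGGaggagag
Mmp15, chr8:95352046-95352295, plus strand: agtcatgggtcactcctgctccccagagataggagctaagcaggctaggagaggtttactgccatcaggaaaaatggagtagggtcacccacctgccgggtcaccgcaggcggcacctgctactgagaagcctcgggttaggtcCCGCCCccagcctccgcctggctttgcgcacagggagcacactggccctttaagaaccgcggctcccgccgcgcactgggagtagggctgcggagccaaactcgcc
Timp1, 30 transcribed bases around the TGAGTAA letters, chrX:20870186-20870215, plus strand: ggtggaTGAGTAAtgcgtccaggaagcctg

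The first comparison, TAC-Veh with Sham-Veh, asked which members respond to pressure overload. Of the 10 genes, 7 were higher after TAC (Mmp2, Mmp3, Mmp14, Mmp23, Timp1, Timp2 and Timp3), 1 was lower (Mmp15), and Mmp9 and Timp4 did not pass the test (adjusted p under 0.05, limma over 13331 genes). Among all genes tested, 21.4% were higher and 23.6% lower. The differences ranged from 0.48 to 4.11 on the log2 scale among the 7 higher members. The median over the 10 members was 0.67, beside -0.0030 over all genes tested. The study used a fold limit of at least 1 on the log2 scale for higher genes. Applied here in both directions, it left 4 members higher (Mmp2, Mmp3, Mmp23 and Timp1) and Mmp15 lower, beside 4.64% and 3.37% of all genes. The libraries of TAC-Veh and Sham-Veh did not overlap for 5 higher members and 1 lower, beside 18.2% and 19.1% of all genes.

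**Figure D1:**
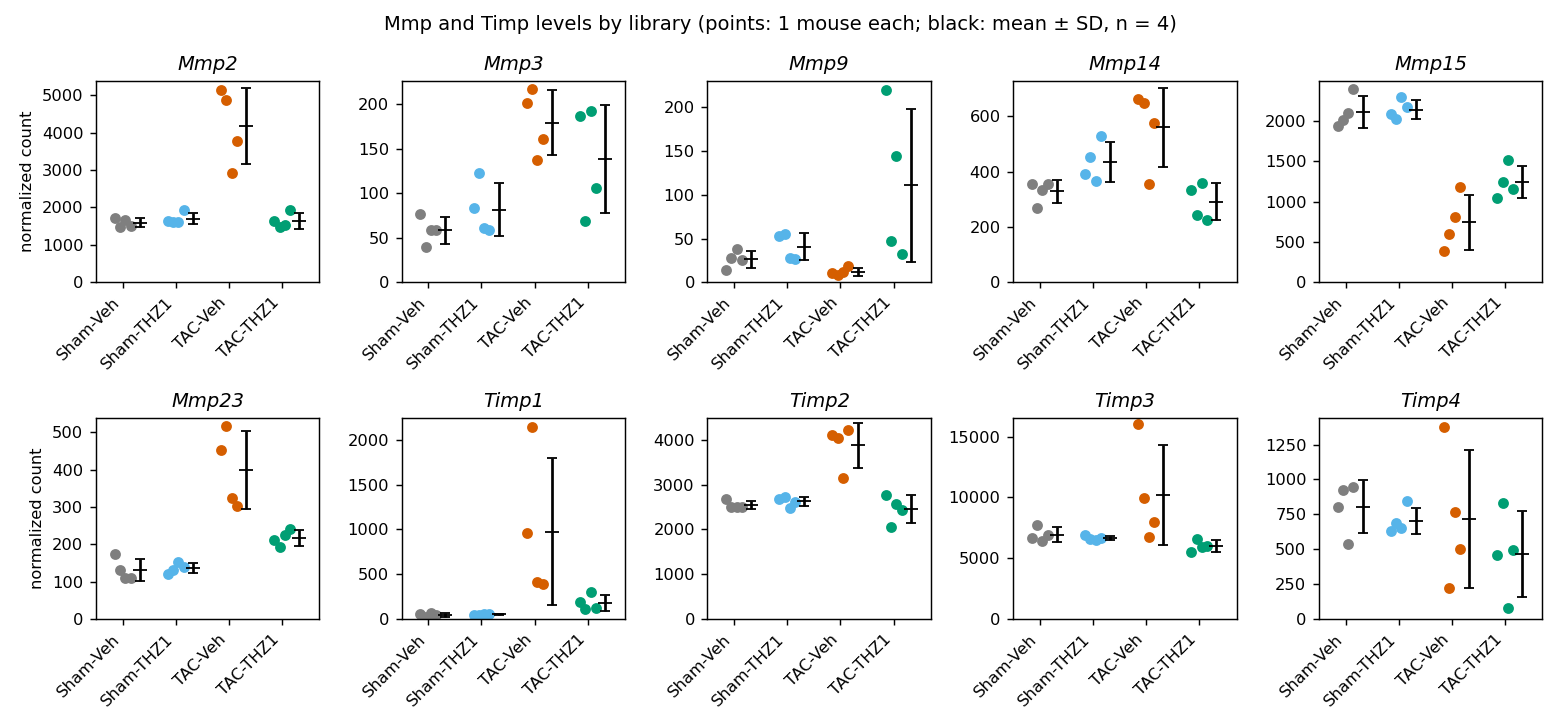
Normalized counts (linear axis from 0) of the 10 members in the 16 libraries, with 1 point per mouse (grey and light blue for sham with vehicle and with THZ1, orange and green for TAC with vehicle and with THZ1) and black bars for mean ± SD (n = 4). TAC-Veh stood apart from both sham groups for Mmp2, Mmp3, Mmp15, Mmp23, Timp1 and Timp2, and TAC-THZ1 lay at the sham level for Mmp2 and Timp2.

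The gelatinases differed from each other. Mmp2 (ENSMUSG00000031740, chr8:95351227-95377316 on the plus strand of NCBIM37, the build of all gene positions given here) encodes the gelatinase that is made by resident stromal cells. Its normalized counts were 1714, 1472, 1674 and 1513 in the Sham-Veh libraries and 5127, 4857, 2919 and 3779 in the TAC-Veh libraries. The lowest TAC-Veh library was above the highest Sham-Veh library. The fitted fold, taken from the means of log2 values as all folds here are, was 2.56, a log2 difference of 1.36 ± 0.14 (SE, n = 4 against 4, adjusted p = 2.15e-06).

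Mmp9 (ENSMUSG00000017737, chr2:164766280-164781350, plus strand) encodes the gelatinase stored in neutrophil granules. It was the scarcest member per kilobase in all 4 groups. Its normalized counts were 13.8, 27.3, 38.0 and 25.3 in Sham-Veh and 10.6, 7.87, 11.9 and 18.7 in TAC-Veh. These ranges overlapped, and the log2 difference of -1.01 ± 0.49 did not pass the test (SE, adjusted p = 0.106, 95% interval -2.05 to 0.03). The recovered reads behind these values were 13 to 43 in Sham-Veh and 9 to 22 in TAC-Veh. Fitted on these groups alone, the adjusted p was 0.0453.

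Mmp3 (ENSMUSG00000043613, chr9:7445822-7455972, plus strand) encodes stromelysin, which cuts proteoglycans and can remove the prodomain of other Mmps. Sham-Veh libraries held 76.4, 40.1, 58.4 and 58.6 normalized counts of it, and TAC-Veh libraries 201, 217, 138 and 161. The groups did not overlap, and the log2 difference was 1.62 ± 0.30 (SE, adjusted p = 4.76e-04), a 3.06-fold rise.

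The membrane-anchored enzymes went in opposite directions. Mmp14 (ENSMUSG00000000957, chr14:55050441-55060095, plus strand) encodes the activator of the Mmp2 precursor and had 355, 269, 334 and 355 normalized counts in Sham-Veh and 663, 649, 355 and 576 in TAC-Veh. The third TAC-Veh library lay at the sham level, and the other three were above every Sham-Veh library. The gene overlaps Gm11067 on the other strand, which shares no exon bases with it and was at 0 in every library. The log2 difference was 0.74 ± 0.19 (SE, adjusted p = 0.00530). Mmp15 (ENSMUSG00000031790, chr8:97876168-97898193, plus strand), a close relative of Mmp14, had 1940.2, 2007, 2099.8 and 2394 in Sham-Veh and 382, 598, 814 and 1185 in TAC-Veh. The groups did not overlap, and the fitted fold was 0.326, a log2 difference of -1.62 ± 0.23 (SE, adjusted p = 3.64e-05).

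Mmp23 (ENSMUSG00000029061, chr4:155024764-155027493, minus strand) encodes an unusual Mmp that is held in the membrane by its prodomain until cleavage releases it. Normalized counts of Mmp23 were 174, 132, 109.6 and 110.3 in Sham-Veh and 453, 518, 324 and 302 in TAC-Veh. All TAC-Veh libraries were above all Sham-Veh libraries, with a log2 difference of 1.59 ± 0.17 (SE, adjusted p = 3.08e-06), a 3.00-fold rise.

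Among the inhibitors Timp1 (ENSMUSG00000001131, chrX:20447292-20451861, plus strand), an inducible secreted Timp, had the largest difference of all members. Its normalized counts were 52.0, 20.1, 71.6 and 44.8 in Sham-Veh and 963, 2142, 413 and 387 in TAC-Veh. The groups did not overlap, but the TAC-Veh libraries were far apart, with an SD of 821 around a mean of 976. The log2 difference was 4.11 ± 0.47 (SE, adjusted p = 5.69e-06), a 17.3-fold rise, and leaving out single libraries kept it between 3.61 and 4.43. Timp1 lies whole within Syn1 on the other strand, with no shared exon bases, and the Syn1 level did not exceed 10.2.

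Timp2 (ENSMUSG00000017466, chr11:118162383-118217054, minus strand), the partner of Mmp14 in Mmp2 activation, changed less but with the smallest standard error of the members. The libraries held 2688, 2500.3, 2507 and 2494 normalized counts in Sham-Veh and 4099.7, 4041, 3139.5 and 4228 in TAC-Veh. The groups did not overlap, and the log2 difference was 0.60 ± 0.09 (SE, adjusted p = 1.01e-04), a 1.51-fold rise. BC100451 overlaps Timp2 on the same strand, with no shared exon bases and a level of at most 9.12.

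Timp3 (ENSMUSG00000020044, chr10:85763117-85812251, plus strand) encodes the Timp that binds to the matrix and also inhibits several ADAM proteases. Its normalized counts were 6682, 7764, 6377 and 6898 in Sham-Veh and 16021, 9948, 6776 and 8005 in TAC-Veh. The third TAC-Veh library lay within the sham range, and the log2 difference was 0.48 ± 0.17 (SE, adjusted p = 0.0340). This call was lost when Sham-Veh replicate 1, 3 or 4 or TAC-Veh replicate 1 or 2 was left out (adjusted p 0.0641 to 0.0821), and without TAC-Veh replicate 1 the log2 difference was 0.24. It was also lost when these groups were fitted alone (adjusted p = 0.115) and with array weights (adjusted p = 0.0616). Timp3 shares 1733 exon bases with Syn3 on the other strand, whose level did not exceed 11.2.

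Timp4 (ENSMUSG00000030317, chr6:115195634-115201867, minus strand), an inhibitor found mainly in heart and a few other tissues, had 805, 926, 538 and 948 normalized counts in Sham-Veh. The TAC-Veh libraries held 1377, 220.2, 764 and 501, both above and below the whole sham range. The log2 difference of -0.43 ± 0.58 did not pass the test (SE, adjusted p = 0.572, 95% interval -1.64 to 0.79). Timp4 lies within Syn2 on the other strand, with no shared exon bases, and the Syn2 level reached 155. It also lies within Gm17482 on the other strand, which was at 0 in every library.

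**Figure D2:**
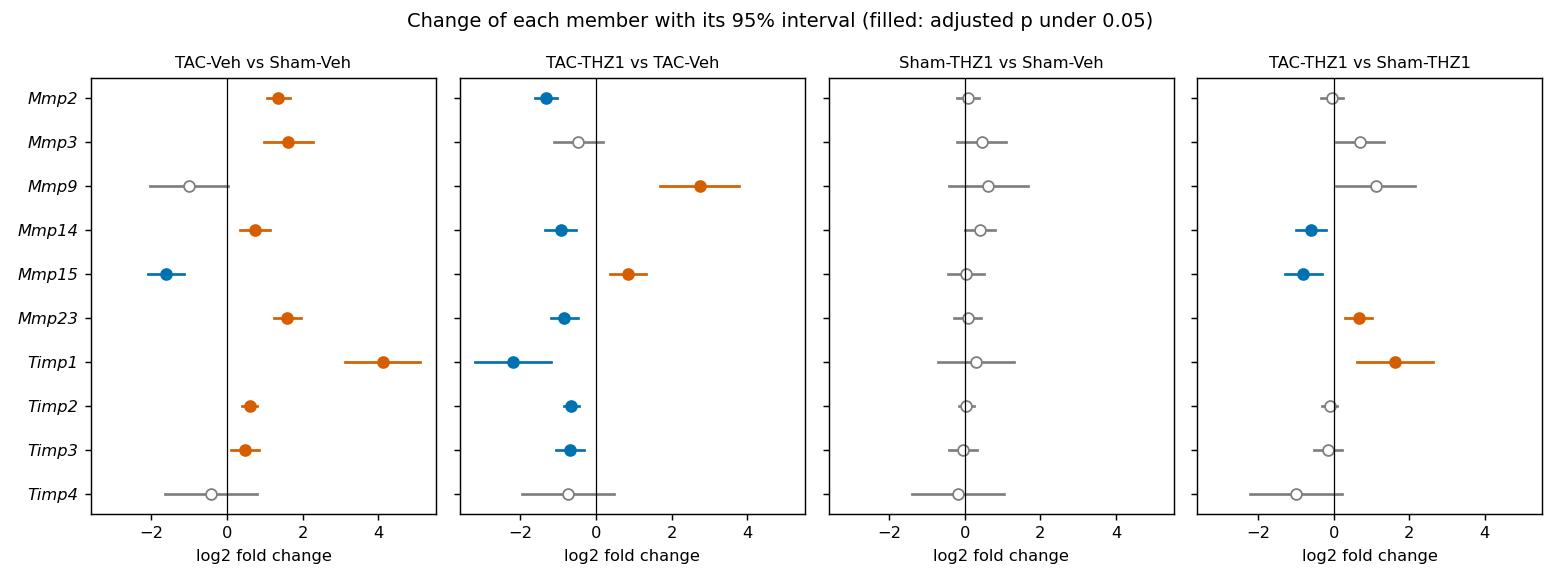
Log2 fold change (x axis, log2 of the normalized count + 1) of each member with its 95% interval in 4 comparisons, filled where the adjusted p was under 0.05 (orange higher, blue lower) and open in grey otherwise. TAC-Veh against Sham-Veh had 8 filled points, TAC-THZ1 against TAC-Veh 8, Sham-THZ1 against Sham-Veh 0 and TAC-THZ1 against Sham-THZ1 4.

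The makeup of the 6 Mmp members and of the Timp family shifted after TAC. Per kilobase, Mmp2 made up 42.6% ± 2.41 (SD, n = 4) of the summed level of the 6 Mmp members in Sham-Veh and 67.0% ± 4.14 in TAC-Veh. Mmp15 went the other way, from 39.4% ± 3.42 to 9.0% ± 4.93. In the inhibitor family Timp1 held 2.57% ± 1.35 of the summed Timp level in Sham-Veh and 26.0% ± 16.1 in TAC-Veh, whose libraries ranged from 15.2% to 49.97%. Timp3 led all members per kilobase in Sham-Veh (851 ± 73.1 normalized counts per kilobase), ahead of Timp2 (654 ± 24.1), Timp4 (568 ± 133), Mmp2 (524 ± 39.1) and Mmp15 (485 ± 46.1). Timp4, Mmp2 and Mmp15 each lay within 1 SD of a neighbour. In TAC-Veh the order began with Mmp2 (1373 ± 335), Timp3 (1251 ± 504), Timp1 (1099 ± 925) and Timp2 (995 ± 128), and no neighbours in this order differed beyond their spread.

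Although single genes moved, the summed Mmp level per kilobase divided by the summed Timp level differed by less than the spread between libraries. With vehicle the ratio was 0.583 ± 0.0672 in sham mice and 0.550 ± 0.102 in TAC mice (SD, n = 4). With THZ1 it was 0.650 ± 0.0198 and 0.604 ± 0.0865. The log2 difference was -0.10 for TAC-Veh against Sham-Veh and 0.14 for TAC-THZ1 against TAC-Veh, beside an SD of 0.19 within groups. Without Mmp2 and Timp3, the most abundant Mmp and Timp members, the log2 differences were -1.07 and 0.95. It is a ratio of RNA levels and not of active protein.

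**Figure D3:**
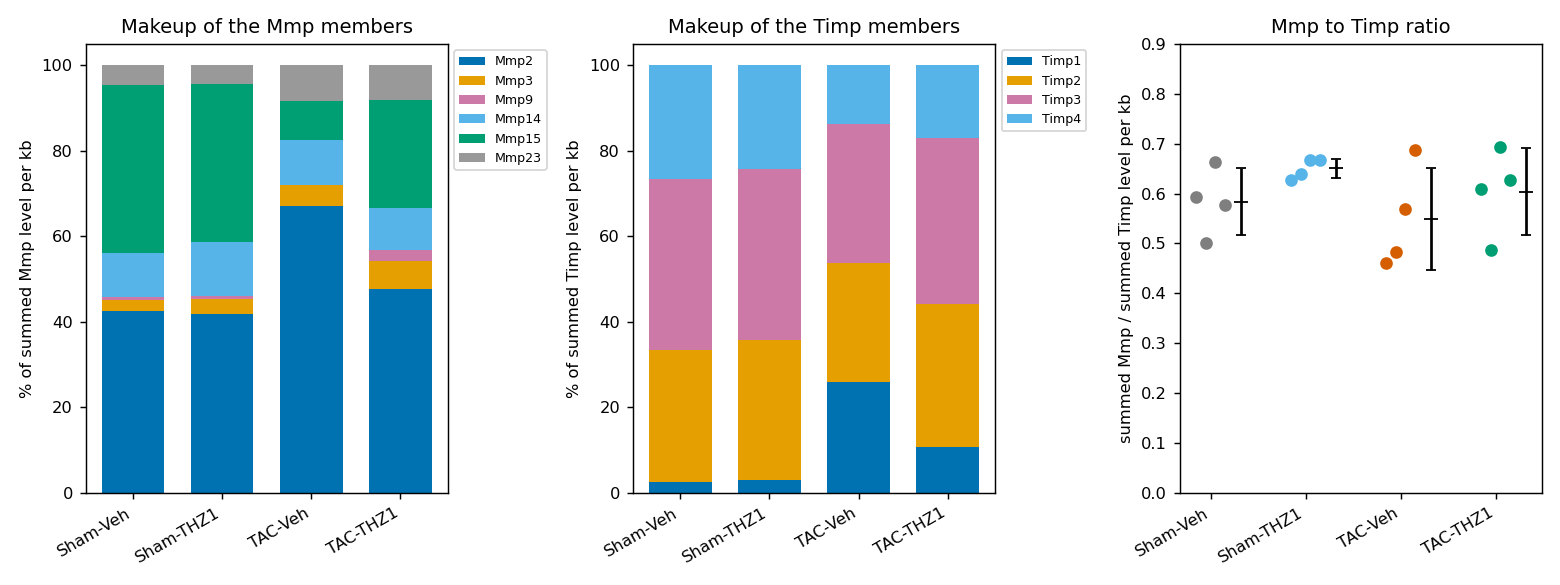
Left and middle, mean share (% of the summed normalized count per kilobase, n = 4 libraries) of each member in the Mmp and Timp families by group, and right, the Mmp to Timp ratio of the 16 libraries with mean ± SD. The Mmp2 share was 42.6% (sham) and 67.0% (TAC) with vehicle and 41.8% and 47.6% with THZ1, while the ratio overlapped between all groups.

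Cell type markers moved in the same comparison. The 6 fibroblast genes (Pdgfra, Tcf21, Dcn, Lum, Col1a1 and Ddr2) summed to 19007 to 21161 normalized counts in Sham-Veh and 36742 to 47677 in TAC-Veh, with 3 of the 6 higher. Most of that sum was Dcn, at means of 14328 in Sham-Veh and 30278 in TAC-Veh. The higher genes were Dcn, Lum and Col1a1. Pdgfra (means 1203 and 1441), Tcf21 (194 and 259) and Ddr2 (1062.5 and 1160) were not called. The 6 cardiomyocyte genes summed to 1073870 to 1175920 in Sham-Veh and 519509 to 758904 in TAC-Veh, with 3 of the 6 lower. Myh6 was the largest part of that sum, at means of 501105 in Sham-Veh and 225634 in TAC-Veh. The genes fell unevenly: Pln had means of 156741 and 87322, Ryr2 32766 and 18213, and Myl2 221125 and 172092. Tnnt2 had means of 178798 and 149732, and Actn2 41206 and 40228. The 6 macrophage genes summed to 4822 to 5851 and 7315 to 9347, with 3 of the 6 higher. Of the 5 mural genes (Myh11, Pdgfrb, Rgs5, Kcnj8 and Notch3), which summed to 21081 to 23478 and 15348 to 22756, 4 were lower. Of the 5 endothelial genes (Pecam1, Cdh5, Kdr, Tie1 and Egfl7), which summed to 18439 to 20303 and 16261 to 20895, 2 were lower and 1 higher. These counts stand beside 21.4% higher and 23.6% lower among all genes tested. No gene of these 5 lists was at 0 in any library. Their part in the Mmp and Timp results was not tested.

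The second comparison, TAC-THZ1 with TAC-Veh, asked what THZ1 changed in the overloaded ventricle. With the drug 6 members were lower (Mmp2, Mmp14, Mmp23, Timp1, Timp2 and Timp3), 2 were higher (Mmp9 and Mmp15), and Mmp3 and Timp4 did not pass the test. Among all genes tested, 14.2% were lower and 15.1% higher. The median over the 10 members was -0.72 on the log2 scale, beside 0.01 over all genes. The study's fold limit here was 0.89 on the log2 scale for lower genes. Applied in both directions, it left 3 lower (Mmp2, Mmp14 and Timp1) and 1 higher (Mmp9), beside 3.62% and 1.85% of all genes. The groups did not overlap for 5 lower members and 1 higher, beside 10.5% and 9.53%. This comparison shares the TAC-Veh libraries with the first, so a low or high TAC-Veh library moves both in opposite directions.

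Mmp2 had 1650.1, 1468, 1518 and 1934 normalized counts in TAC-THZ1, all below the lowest TAC-Veh library at 2919 and around the Sham-Veh range. The log2 difference from TAC-Veh was -1.32 ± 0.14 (SE, adjusted p = 3.19e-05), a fitted fold of 0.401. Its activator Mmp14 had 335, 243, 359.7 and 224 in TAC-THZ1, which overlapped only the third TAC-Veh library. That difference was -0.93 ± 0.19 (SE, adjusted p = 0.00229). Mmp23 had 212, 192, 225 and 240.5, all below TAC-Veh, with a log2 difference of -0.84 ± 0.17 (SE, adjusted p = 0.00192).

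Mmp15 had 1046, 1239, 1515 and 1161 in TAC-THZ1, higher than 3 of the 4 TAC-Veh libraries and overlapping the fourth at 1185. The log2 difference was 0.84 ± 0.23 (SE, adjusted p = 0.0111), a 1.79-fold rise that still left it below every sham library. Fitted on these groups alone, the adjusted p was 0.0868. Mmp3 had 187, 68.7, 192 and 106, spread from near the sham level to the TAC-Veh level, and its log2 difference of -0.47 ± 0.30 did not pass the test (SE, adjusted p = 0.263, 95% interval -1.11 to 0.18).

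Timp1 had 187, 108, 298 and 124 normalized counts in TAC-THZ1, below all TAC-Veh libraries and above all Sham-Veh libraries. The log2 difference from TAC-Veh was -2.19 ± 0.47 (SE, adjusted p = 0.00291), a fitted fold of 0.219. Timp2 had 2772, 2049.6, 2565 and 2433, also below all TAC-Veh libraries, with a log2 difference of -0.66 ± 0.09 (SE, adjusted p = 1.95e-04).

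Timp3 had 5487, 6615, 5894 and 6007 in TAC-THZ1, just under the lowest TAC-Veh library at 6776. Its log2 difference was -0.69 ± 0.17 (SE, adjusted p = 0.00794), and it did not pass when these groups were fitted alone (adjusted p = 0.0747). Timp4 had 462, 827, 76.5 and 496, again spread over more than any sham group, and the log2 difference of -0.75 ± 0.58 did not pass the test (SE, adjusted p = 0.349, 95% interval -1.96 to 0.47).

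Mmp9 was the member with the largest rise under THZ1. Its normalized counts were 219.5, 47.1, 144 and 32.7 in TAC-THZ1, from 201, 37, 177 and 33 recovered reads, and every library was above every TAC-Veh library. The log2 difference was 2.74 ± 0.49 (SE, adjusted p = 9.43e-04), a 6.67-fold rise. The neutrophil genes were uneven in the same libraries. The 6 genes of that list (S100a8, S100a9, Ly6g, Csf3r, Retnlg and Cxcr2) summed to 7132, 975, 3089 and 214 normalized counts in TAC-THZ1 replicates 1 to 4, in the same order of libraries as Mmp9. In TAC-Veh they summed to 125 to 286, in Sham-Veh to 50.9 to 101 and in Sham-THZ1 to 84.1 to 567. All 6 were above 0 in every TAC-THZ1 library, and 1 of them was at 0 in each TAC-Veh library. Of the 5 that passed the filter, 3 were higher in TAC-THZ1 than in TAC-Veh, beside 15.1% of all genes tested. Cxcr2 did not exceed 4.60 in Sham-Veh or 9.41 in TAC-Veh, so it passed the filter only through the THZ1 groups. The count for this list is therefore not a like comparison with the share of all genes.

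A fit without TAC-THZ1 replicates 1 and 3, chosen after seeing the data, kept only replicates 2 and 4 of that group. The neutrophil genes summed to 975 and 214 in these, beside 125 to 286 in TAC-Veh, so the fit does not set neutrophil RNA aside. Mmp9 was higher than in TAC-Veh there, with a log2 difference of 1.66 (adjusted p = 0.0110), a 3.17-fold rise. In that fit 6 members were lower and Mmp9 alone was higher, since Mmp15 (log2 difference 0.81, adjusted p = 0.0504) and Timp3 (-0.61, adjusted p = 0.0594) were lost and Mmp3 (-1.04, adjusted p = 0.0229) was gained among the lower. Mmp8, the neutrophil collagenase, named here after its values were seen, did not pass the filter: it ranged from 1.98 to 358 normalized counts in TAC-THZ1 and did not exceed 9.41 in any other library. The erythroid genes summed to 27852, 6449, 15640 and 8119 in TAC-THZ1 replicates 1 to 4 and to 7076 to 12455 in TAC-Veh. The macrophage genes summed to 9813, 5121, 8743 and 6038 in the same replicates, with none of the 6 macrophage genes passing the test. Both lists, like Mmp9 and the neutrophil genes, were highest in replicates 1 and 3 of that group. The part of blood cells in the Mmp9 result was not tested.

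**Figure D4:**
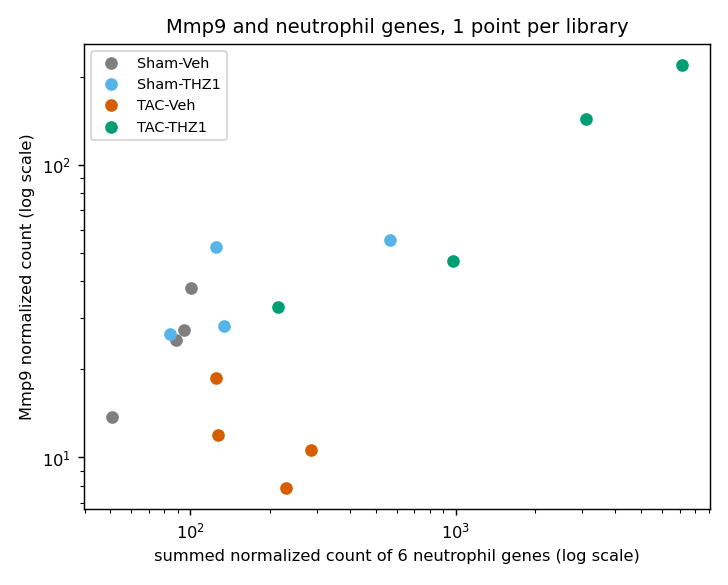
Normalized count of Mmp9 (y axis, log scale) against the summed normalized count of 6 neutrophil genes (x axis, log scale), 1 point per library. TAC-THZ1 replicates 1 and 3 stood apart at 219.5 and 144 for Mmp9 with sums of 7132 and 3089, and the 4 TAC-Veh libraries were lowest for Mmp9 at sums of 125 to 286 apart from 1 Sham-Veh library at 13.8.

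The stromal and myocyte lists also differed between TAC-THZ1 and TAC-Veh. The fibroblast genes summed to 22969 to 34081 in TAC-THZ1, below all TAC-Veh libraries, with 4 of the 6 lower. Dcn again made up most of that sum, at a mean of 20737 in TAC-THZ1. The cardiomyocyte genes summed to 903360 to 1134700, above all TAC-Veh libraries, with 4 of the 6 higher. Myh6 and Myl2 were the largest parts of that sum, at means of 303748 and 268845 in TAC-THZ1. The mural genes summed to 16479 to 17220.4, with 1 of the 5 higher, and the endothelial genes to 15246 to 16573, with 2 of the 5 lower. These counts stand beside 14.2% lower and 15.1% higher among all genes tested. No gene of these lists was at 0 in any library, and their part in the Mmp and Timp differences was not tested.

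The third comparison, Sham-THZ1 with Sham-Veh, asked whether THZ1 alone moved these genes. None of the 10 passed the limma test, and edgeR and DESeq2 on recovered reads called 0. Of the 10, 0 had an unadjusted p under 0.05, beside 917 of the 13331 genes tested. Of all genes, 0.0225% were higher and 0.0450% lower. More genes passed when these groups were fitted alone (465 of 13331) or with array weights (513), though no member did. The main fit pools the spread with that of the TAC groups, whose libraries differed more from each other. The largest differences were 0.62 ± 0.49 for Mmp9, 0.45 ± 0.30 for Mmp3 and 0.40 ± 0.19 for Mmp14 on the log2 scale (SE). The intervals were narrow for some abundant members but not for Timp4. Timp2 differed by 0.04 (95% interval -0.15 to 0.24), Mmp2 by 0.09 (-0.20 to 0.38) and Timp3 by -0.05 (-0.42 to 0.32). For Mmp9 (0.62, -0.42 to 1.66), Mmp3 (0.45, -0.20 to 1.09), Timp1 (0.30, -0.70 to 1.29) and Timp4 (-0.17, -1.39 to 1.05) the interval did not exclude a change of more than 1 log2 unit.

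Mmp14 had 392, 451, 367 and 529.8 normalized counts in Sham-THZ1, all above the highest Sham-Veh library at 355, although it did not pass the test (adjusted p = 0.737). Over the refits Mmp14 reached an adjusted p of 0.0643 at the lowest. It was the 1 member whose groups did not overlap in this comparison, beside 6.29% of all genes in that direction. Mmp2 had 1640.0, 1607, 1619 and 1919.8 in Sham-THZ1, and Timp1 50.1, 44.9, 57.4 and 60.8, both overlapping Sham-Veh.

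The fourth comparison, TAC-THZ1 with Sham-THZ1, asked what remained of the TAC difference under the drug. Of the 10 genes, 2 were higher (Mmp23 and Timp1) and 2 lower (Mmp14 and Mmp15), beside 11.4% and 12.8% of all genes. The libraries of these 4 genes did not overlap between the groups, beside 15.7% of all genes for the higher and 17.7% for the lower direction. Mmp9 differed by 1.11 ± 0.49 (SE, adjusted p = 0.109) and was not called by limma, but it was called higher by edgeR (1.45, adjusted p = 0.0365) and DESeq2 (1.45, adjusted p = 0.0173). Without TAC-THZ1 replicates 1 and 3 that limma difference was 0.03 (adjusted p = 0.969). The log2 differences were 0.67 ± 0.17 for Mmp23 (SE, adjusted p = 0.0108), 1.62 ± 0.47 for Timp1 (adjusted p = 0.0211), -0.60 ± 0.19 for Mmp14 (adjusted p = 0.0338) and -0.80 ± 0.23 for Mmp15 (adjusted p = 0.0190). In vehicle-treated mice the TAC differences of the same genes were 1.59, 4.11, 0.74 and -1.62. For Mmp2 the difference was -0.05 (95% interval -0.35 to 0.24), for Timp2 -0.10 (-0.30 to 0.09) and for Timp3 -0.16 (-0.53 to 0.21).

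Single libraries decided some of these calls. Timp1 was lost without Sham-THZ1 replicate 2 or TAC-THZ1 replicate 1 or 3 (adjusted p 0.0529 to 0.0669). Mmp14 was lost without Sham-THZ1 replicate 1, 2 or 4 or TAC-THZ1 replicate 2 or 4 (adjusted p 0.0503 to 0.108), and Mmp15 without TAC-THZ1 replicate 1 (adjusted p = 0.0599). Without TAC-THZ1 replicate 2 Mmp3 was gained (log2 difference 0.99, adjusted p = 0.0186), and without TAC-THZ1 replicate 4 Mmp9 was (1.55, adjusted p = 0.0313).

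The difference between the drug effects in TAC and in sham mice was then tested as an interaction. Of the 10 genes, 5 had a more negative drug effect in TAC than in sham mice (Mmp2, Mmp14, Mmp23, Timp1 and Timp2) and 0 a more positive one in the limma test, beside 5.62% and 4.40% of all genes. The interaction was -1.41 ± 0.20 for Mmp2 (SE, adjusted p = 0.00194), -1.33 ± 0.27 for Mmp14 (adjusted p = 0.00840), -0.92 ± 0.24 for Mmp23 (adjusted p = 0.0257), -2.49 ± 0.67 for Timp1 (adjusted p = 0.0282) and -0.70 ± 0.13 for Timp2 (adjusted p = 0.00571). Of the 10, 9 had an unadjusted p under 0.05, as did 3618 of the 13331 genes tested. Mmp9, at 2.12 ± 0.70 (adjusted p = 0.0627), passed with edgeR (adjusted p = 0.0465) and with DESeq2 (adjusted p = 0.00701), and DESeq2 also called Timp3 lower (-0.71, adjusted p = 0.0457), where limma gave -0.64 ± 0.25 (SE, adjusted p = 0.107).

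The interaction calls of Mmp23 and Timp1 hung on single libraries. Mmp23 was lost without Sham-Veh replicate 3 or 4, Sham-THZ1 replicate 3 or 4 or TAC-THZ1 replicate 2 (adjusted p 0.0517 to 0.0575). Timp1 was lost without Sham-Veh replicate 2, Sham-THZ1 replicate 1, 3 or 4 or TAC-THZ1 replicate 2 or 4 (adjusted p 0.0505 to 0.0628). Gains came without TAC-Veh replicate 4 for Mmp9 (adjusted p = 0.0463) and Mmp15 (adjusted p = 0.0124), without TAC-THZ1 replicate 4 for Mmp9 (adjusted p = 0.0246) and without TAC-Veh replicate 3 for Timp3 (adjusted p = 0.0169).

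Of the 7 other Mmp genes that passed the filter, 1 was higher after TAC, Mmp19 (log2 difference 0.70 ± 0.18, SE, adjusted p = 0.00539), and 1 lower, the collagenase Mmp13 (-1.38 ± 0.45, adjusted p = 0.0204), beside 21.4% and 23.6% of all genes. With THZ1 in TAC mice 2 were lower, Mmp19 (-0.60 ± 0.18, adjusted p = 0.0225) and the macrophage elastase Mmp12 (-0.96 ± 0.33, adjusted p = 0.0383), and 0 higher, beside 14.2% and 15.1% of all genes. The median over the 7 was -0.07 after TAC and -0.27 with the drug.

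The genes that activate or clear Mmps were taken as a list that holds proprotein convertases, the plasmin system, surface partners and endocytic receptors, of which 19 of 20 genes passed the filter. After TAC 10 were higher and 1 lower, and with THZ1 in TAC mice 10 were lower and 0 higher, with medians of 0.52 and -0.48 on the log2 scale. Of all genes, 21.4% were higher after TAC and 14.2% lower with the drug. Ctsk, the collagen-cutting cathepsin K, differed by 1.71 ± 0.21 after TAC (SE, adjusted p = 1.24e-05) and by -1.46 ± 0.21 with THZ1 (adjusted p = 2.40e-04). Serpine2, an inhibitor of plasminogen activators and thrombin, differed by 1.43 ± 0.19 after TAC, and Cd44, the hyaluronan receptor, by 1.06 ± 0.15. Plat, the tissue plasminogen activator, differed by -1.02 ± 0.14 with THZ1 (adjusted p = 1.78e-04). The 1 lower gene was Furin (-0.30), the convertase that cuts the prodomain of membrane-type Mmps.

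A further list held 8 ADAM proteases, a family of which Timp3 inhibits several but not all. After TAC 3 of the 8 were higher, beside 21.4% of all genes. The log2 differences were 1.76 ± 0.30 for Adam12, 0.64 ± 0.11 for Adam9 and 0.60 ± 0.15 for Adam15 (SE). With THZ1 in TAC mice 3 were lower: Adam12 (-1.49 ± 0.30), Adam9 (-0.64 ± 0.11) and Adam10 (-0.33), beside 14.2% of all genes.

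The matrix genes whose proteins Mmps can cut rose almost as a whole, 14 of 15 after TAC with a median log2 difference of 1.36, and all 15 were lower with THZ1 in TAC mice, with a median of -1.66, beside 21.4% and 14.2% of all genes. Postn, the matricellular protein periostin, differed by 4.65 ± 0.34 after TAC (SE, adjusted p = 1.24e-07) and by -3.15 ± 0.34 with THZ1 (adjusted p = 3.97e-05). Bgn, the proteoglycan biglycan, differed by 2.24 ± 0.17 and -1.46 ± 0.17. Dcn, the collagen-binding decorin, differed by 1.07 ± 0.12 after TAC. Dcn and Col1a1 are also in the fibroblast list above.

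Cytokines and transcription factors known to induce Mmp or Timp genes formed a further list, with 19 of 22 passing the filter. After TAC 5 of these 19 were higher, where 21.4% of all genes were, and the log2 differences were 1.94 ± 0.16 for Tgfb2, 1.18 ± 0.13 for Tgfb3, 1.32 ± 0.32 for Runx1, 0.73 for Junb and 0.42 for Tgfb1, while Ets2 was lower (-0.34). With THZ1 in TAC mice 8 were lower, where 14.2% of all genes were, and 0 higher, among them Tgfb2 (-1.35 ± 0.16, SE) and Tgfb3 (-1.09 ± 0.13).

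The genes most like each member were ranked by Pearson's r of log2 values over the 16 libraries, which share their 4 groups, so a high r reflects the group means as well as the spread within them. Mmp2 was closest to Pkd2 (r = 0.99), Gab2 and Ace. Timp1 was closest to Capg (r = 0.98), Prkcdbp and Itgb1bp3. Mmp14 was closest to Lima1 (r = 0.94), Eln and Adamts4. Mmp15, the member that fell after TAC, was closest to Zfp238 (r = 0.99), Dennd4b and Pde4a. Mmp23 was closest to Frzb (r = 0.98), Tlr4 and Fam26e, Timp2 to Antxr1 (r = 0.98), A430110N23Rik and Nav1, and Timp3 to Aff4 (r = 0.95), Slc36a4 and Tor1aip2. No member was among the 3 genes closest to any of these 7 members.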

How the data were processed

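RNA from the ventricle pieces of 16 mice was sequenced as stranded mRNA libraries with single reads of 40 bases. Per the labels and the study's methods, the authors aligned reads to mm9 with TopHat2 2.1.1, counted them per GENCODE gene with HTSeq in reverse-stranded mode and divided the counts by DESeq2 size factors. The deposited signal is this normalized count per gene and library. Dividing by each library's smallest step (0.715 to 1.34) gave whole reads, within 0.01 of a read, for 100% of the values.

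Genes were matched by Ensembl identifier to the annotation on NCBIM37 for symbols, positions and exon lengths. Values were tested as log2(normalized count + 1) with limma 3.58.1 in R 4.3.3, in 1 fit of all 16 libraries with 4 groups, on the 13331 genes with at least 10 normalized counts in at least 4 libraries. P-values were adjusted over all of them by Benjamini-Hochberg, and a call is an adjusted p under 0.05. Fold changes on this scale understate those of low genes. The limma p-values rest on 1 spread per gene between the libraries of a group, pooled over all 4 groups. Chi-square values per degree of freedom were 2.98 to 7.70 within the sham groups and 10.3 to 98.0 within the TAC groups. They showed no duplicated library. Alternatives were edgeR 4.0.16 and DESeq2 1.42.0 on recovered reads, other pseudocounts, filters, scalings, variance models and samples, a replicate block, and single libraries left out. Leaving out both TAC-THZ1 replicates 1 and 3 was chosen after seeing the data. On counts simulated for TAC-Veh against Sham-Veh (13331 genes, 200 changed), limma called 88% of 2-fold and 97% of 4-fold changes, and 3.65% of its calls were false. In the same simulation 5.10% of edgeR calls and 14.0% of DESeq2 calls were false. The simulation gave each gene 1 spread in all groups and changed few genes, unlike the data. These shares therefore do not carry over to the data.

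The members and gene lists were chosen with earlier results of these data known. From each pathway list, up to 3 genes with the smallest adjusted p after TAC and up to 2 with the smallest under THZ1 in TAC were named, and all where a count was 5 or fewer. For members called in both of those comparisons the 3 most correlated genes were named, and genes that overlap a member were named. Figures were drawn with Matplotlib 3.10.9.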

Additional observations from a re-analysis of the deposited data

Results flagged for a closer look

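Of the 40 groups of 4 libraries formed by 10 members and 4 groups, 2 held a library far from the other three, and 2 would be expected by chance at 1 in 20. Mmp2 was 1919.8 normalized counts in Sham-THZ1 replicate 4, beside 1607 to 1640.0 in the others. Timp2 was 2688 normalized counts in Sham-Veh replicate 1, beside 2494 to 2507 in the others.

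For 5 members the interaction term of the limma fit passed the test, so that their THZ1 effect in TAC mice was not that in sham mice. On the log2 scale the interaction was -1.41 for Mmp2 (adjusted p = 0.00194), -1.33 for Mmp14 (adjusted p = 0.00840), -0.92 for Mmp23 (adjusted p = 0.0257), -2.49 for Timp1 (adjusted p = 0.0282) and -0.70 for Timp2 (adjusted p = 0.00571).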

How the results depend on the processing

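Over 1435 refits of single members, 1373 kept direction and side of the threshold, 35 lost a call, 15 gained one and 12 changed sign, none of them for a called member. With the study's fold limits, applied in both directions, the counts were 4 higher after TAC and 3 lower and 1 higher with THZ1 in TAC. The study set no limit for the other comparisons. A limit of 1 on the log2 scale there gave 1 higher and 0 lower for TAC-THZ1 against Sham-THZ1, and 3 lower for the interaction. Fitted on the compared groups alone, 2 were lower after TAC (Mmp9 added, while Timp3 was lost among the higher) and 1 was higher with THZ1 (Mmp15 lost, as was Timp3 among the lower). A filter at a mean of 50 left 1 higher with THZ1, because Mmp9 was then not tested. Without TAC-THZ1 replicates 1 and 3 the counts were 2 lower after TAC, 1 higher with THZ1 in TAC, and 0 higher and 1 lower for TAC-THZ1 against Sham-THZ1. Both edgeR and DESeq2 gave 1 higher interaction, Mmp9, and DESeq2 added Timp3 to the lower. Leaving out single libraries gave 1 to 3 higher and 1 to 2 lower members for TAC-THZ1 against Sham-THZ1, and 0 to 2 higher and 3 to 6 lower for the interaction. The Mmp to Timp ratio without Mmp2 and Timp3 moved to -1.07 after TAC and 0.95 with THZ1. The cause of the other shifts was not tested.

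The sign changes were all in differences that passed no test. For TAC-THZ1 against Sham-THZ1, Mmp2 was 0.011 with array weights and -0.13 to 0.0095 with single libraries left out. Timp4 was -0.84 to 0.040 after TAC and -1.04 to 0.15 for the interaction with single libraries left out. Without TAC-THZ1 replicates 1 and 3 it was 0.13 with THZ1 in TAC and 0.30 for the interaction. For Sham-THZ1 against Sham-Veh, leaving out single libraries gave -0.014 to 0.087 for Mmp15, -0.0030 to 0.22 for Mmp23, -0.055 to 0.54 for Timp1 and -0.088 to 0.0069 for Timp3.

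The replicate numbers did not pair the libraries, since only 2 of 16 correlated best with their own number. With the number as a replicate block the counts stayed 7 higher and 1 lower after TAC, 2 higher and 6 lower with THZ1 in TAC, and 5 lower for the interaction. Depth limits Mmp9 most, with as few as 9 recovered reads in a library.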
